A study of Capra hircus with 20 samples.

Results

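The members described here are 8 genes of the 21071 in the goat hypothalamus expression table, the AMPA receptor subunit genes GRIA1, GRIA2 and GRIA4 and the kainate receptor subunit genes GRIK1, GRIK2, GRIK3, GRIK4 and GRIK5. The rule that picks them uses gene symbols, matched to identifiers through the goat ARS1.2 annotation, and no threshold on measured values, but the families were chosen with earlier results of these data known. All 8 had at least 0.1 FPKM in at least 5 libraries and were tested with 16771 genes in all. FPKM corrects the fragments of a gene for its exon length and for library size. Levels of different subunits are set side by side on that basis, and differences between genes in annotation or mapping were not tested. The study followed female Jining grey goats, a breed that matures early, at 1 day (D1), 60 days (M2), 120 days (M4) and 180 days (M6) of age. There were 5 goats per stage, with 1 strand-specific, rRNA-depleted library of hypothalamus from each goat, and the goats of the 4 groups were untreated, reared under the same conditions and slaughtered on the same date. A library is named here by its stage and replicate number, so that D1-4 is replicate 4 of D1.

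AMPA and kainate receptors are ion channels opened by glutamate, and both are tetramers built from subunits of their own family. AMPA receptors carry most of the fast excitatory current at central synapses. The GRIA2 subunit, once its transcript has been edited, makes the channel nearly impermeable to calcium, so the balance of GRIA2 against the other AMPA subunits sets a property of the receptor. Kainate receptors act on both sides of the synapse, where GRIK1, GRIK2 and GRIK3 can form channels alone and GRIK4 and GRIK5 bind kainate tightly but need one of the former group as a partner. In the hypothalamus, glutamate is the main fast excitatory transmitter and reaches neuroendocrine neurons, among them the gonadotropin-releasing hormone neurons that drive puberty. The FPKM of a gene pools its splice forms and does not separate edited from unedited transcripts.

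The genes lie on 7 chromosomes of the goat assembly ARS1.2, with GRIA4 and GRIK4 both on chromosome 15, and each value covers all annotated exons of the protein-coding gene. GRIA1 is at chr7:45259914-45615155, GRIA2 at chr17:29126061-29323956 and GRIA4 at chr15:79973814-80666957. GRIK1 is at chr1:4462411-4927194, GRIK2 at chr9:35137287-35864369 and GRIK3 at chr3:11735417-11978076. GRIK4 is at chr15:50750539-51256475 and GRIK5 at chr18:52076514-52139653. GRIA1 overlaps an annotated pseudogene, and none of the other members overlaps another annotated gene.

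The labelled tissue was checked against marker genes before the subunits were compared. The hypothalamic transcription factors SIM1, NKX2-1 and OTP were under 1 FPKM in 13, 13 and 15 of the 20 libraries, and the sum of 8 hypothalamic markers ran from 1.04 FPKM in M4-3 to 908 FPKM in M6-5. Markers of striatal neurons (DRD1, ADORA2A and PPP1R1B, 3 of 3 in the table, none at 0) summed to 434 FPKM in D1-4, 177 FPKM in M6-2, 116 FPKM in M2-4 and 17.0 FPKM in M4-1, against 8.09 FPKM or less elsewhere. In M4-1 the striatal sum came mainly from DRD1 (10.1 FPKM) and PPP1R1B (6.82 FPKM). ADORA2A had 0.0521 FPKM there, below its median of 0.389 FPKM over the 20 libraries. The cortical markers TBR1 and NEUROD6 summed to 31.4 FPKM in M4-1 and to at most 4.40 FPKM elsewhere. The thalamic markers TCF7L2 and PRKCD summed to 87.8 FPKM in M4-2 and to at most 33.9 FPKM elsewhere. In M4-2 nearly all of that sum was TCF7L2, at 86.3 FPKM, and PRKCD had 1.49 FPKM in M4-2, below its median of 2.26 FPKM over the 20 libraries. Results are therefore also given without these 5 libraries, which were picked once their marker sums were known. Each had a sum over 10 FPKM for striatum or cortex, or over 40 FPKM for thalamus. The 15 libraries kept had the lower sums given above rather than none, and some, such as M4-3, had little of the hypothalamic markers. Pearson's correlation of log2(FPKM + 0.1) over genes between libraries of 1 stage was between 0.833 and 0.962, and no 2 libraries were identical. In M6-3 and M2-3 the single gene KLHDC1 took 9.83% and 23.9% of the summed FPKM, and the FPKM of every other gene is relative to a total that includes it.

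Among the members, which leave out GRIA3, GRIA2 was the most abundant transcript, at 78.7 ± 58.5 FPKM (SD, n = 20). It was above GRIA1 in 20 of 20 libraries. GRIA1 and GRIA4 followed at 29.0 ± 9.74 and 27.3 ± 9.58 FPKM, and their order was not fixed, since GRIA1 was the higher in 12 libraries. The main kainate subunits came next, with GRIK2 at 24.1 ± 11.3, GRIK3 at 18.4 ± 7.75 and GRIK1 at 16.7 ± 5.38 FPKM. GRIA4 exceeded GRIK2 in 15 libraries, GRIK2 exceeded GRIK3 in 13 and GRIK3 exceeded GRIK1 in 12, so these neighbours in the order did not differ beyond their spread. The high-affinity subunits GRIK4 and GRIK5 were lower, at 4.22 ± 1.10 and 2.94 ± 1.12 FPKM. GRIK1 was above GRIK4 in 20 of 20 libraries and GRIK4 above GRIK5 in 17.

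**Figure D1:**
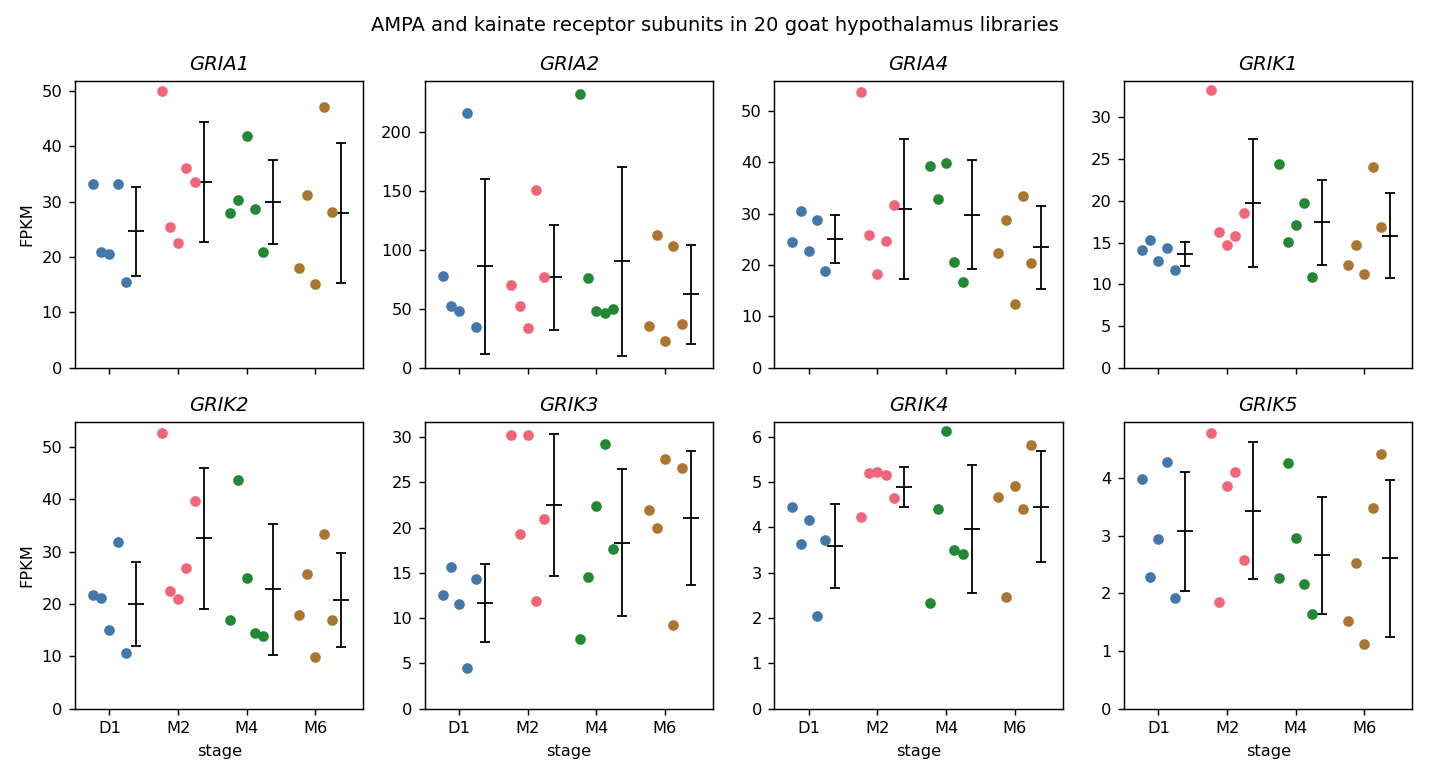
FPKM of each subunit (vertical axis, linear and starting at 0, a different scale in each panel) in the 5 libraries of D1, M2, M4 and M6 (points in replicate order from left to right), with the stage mean and SD as a black bar beside them. GRIA2 has 1 library far above the other 4 at D1 (216 FPKM) and at M4 (232 FPKM), and no subunit separates any 2 stages completely.

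GRIA2 also varied most from goat to goat. At D1 its levels were 77.8, 52.6, 48.0, 216 and 34.7 FPKM in replicates 1 to 5. At M2 they were 70.3, 52.5, 33.5, 150.2 and 76.7 FPKM, and at M4 232, 75.5, 47.6, 46.5 and 49.7 FPKM. In M6 the 5 libraries had 35.5, 112, 22.8, 103 and 36.9 FPKM. In each stage 1 or 2 libraries stood at over 100 FPKM, and the ranges of the 4 stages overlapped. The SD of log2(FPKM + 0.1) within stages was 0.96 for GRIA2, above 78.7% of all genes tested, beside a median of 0.57 over those genes.

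The 4 libraries with most GRIA2, M4-1, D1-4, M2-4 and M6-2, were also the 4 with the highest striatal marker sums. M4-1 was the one with cortical markers, and its ADORA2A, at 0.0521 FPKM, was below the median of 0.389 FPKM. Without these 4 libraries and M4-2, the library high in TCF7L2, GRIA2 stood at 52.5 ± 21.2 FPKM (n = 15), between 22.8 and 103 FPKM. The mature oligodendrocyte markers (MOG, MAG, CNP, MOBP, CLDN11 and OPALIN, 6 of 6 in the table, none at 0) ran the other way in part. They summed to 122 FPKM in M4-1, 181 in M6-4, 245 in M4-2, 259 in D1-4 and 597 in M2-4, and to between 955 and 3694 FPKM in the other libraries, M6-2 among them. By stage their sums ranged from 259 to 3694 FPKM (D1), 597 to 1638 (M2), 122 to 2235 (M4) and 181 to 2776 (M6). The part of tissue composition in the level of GRIA2 was not tested, and in bulk tissue fewer cells of a type and less RNA per cell cannot be told apart.

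Of the summed FPKM of the 3 AMPA members, GRIA2 made up 54.0% ± 11.3 (SD, n = 20), GRIA1 23.7% ± 6.29 and GRIA4 22.3% ± 6.14. GRIA2 held the largest share in all 20 libraries, from 36.8% in M4-3 to 77.7% in D1-4. From D1 to M6 its share was 57.7% ± 11.6, 52.3% ± 11.8, 54.9% ± 14.9 and 51.3% ± 9.22 (n = 5 each), and these means differ by less than the SD within any stage. In the 15 libraries under the limits for markers of other brain regions the share was 49.0% ± 6.10 and reached at most 57.4%. The share is a description and was not tested.

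The remaining AMPA subunit gene, GRIA3, is not a member, and its values are given beside theirs. Its mean of 42.6 ± 20.8 FPKM was second to GRIA2. The annotation table lists 7 other genes at coordinates overlapping it on chromosome X, which it gives without scaffolds, and the part of overlapping genes in the FPKM of GRIA3 was not tested. Its levels at D1 were 37.1, 74.4, 40.9, 16.3 and 45.3 FPKM, and those at M2 25.5, 28.9, 33.0, 28.1 and 38.4 FPKM. The M4 libraries had 30.0, 13.9, 59.3, 56.0 and 59.0 FPKM and the M6 libraries 68.0, 57.0, 89.8, 13.3 and 37.9 FPKM. Only the 5 M2 libraries lay close together, and the ranges of all stages overlapped. With GRIA3 in the sum, GRIA2 made up 40.4% ± 15.4 and GRIA3 held 26.9% ± 15.5, between 5.54% in D1-4 and 64.1% in M6-3. GRIA2 then had the largest share in 12 libraries and GRIA3 in 8. Among the 15 libraries under the limits for markers of other regions, GRIA3 had the largest share in 8 and GRIA2 in 7.

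**Figure D2:**
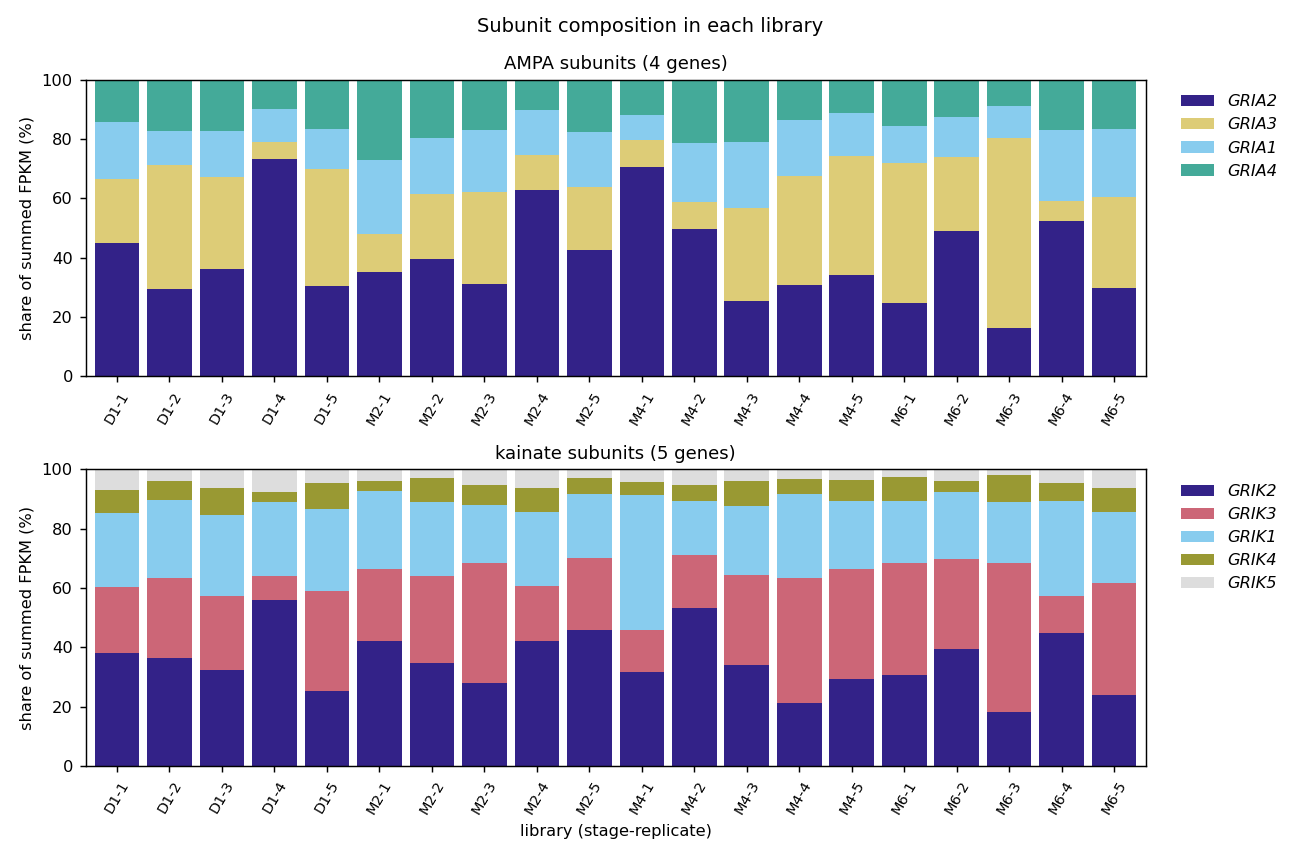
Share of each subunit in the summed FPKM of its family (vertical axis, percent) in each of the 20 libraries, for the AMPA genes with GRIA3 (upper panel) and the 5 kainate genes (lower panel). The share of GRIA2 runs from 16.3% in M6-3 to 73.4% in D1-4, and that of GRIK3 from 7.96% in D1-4 to 50.3% in M6-3.

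Within the kainate family GRIK2 made up 35.3% ± 10.1 (n = 20), GRIK3 28.2% ± 10.9, GRIK1 25.4% ± 5.78, GRIK4 6.62% ± 1.89 and GRIK5 4.50% ± 1.54. GRIK2 held the largest share in 12 libraries, GRIK3 in 7 and GRIK1 in 1, which was M4-1 with 45.5%. The ratio of GRIK2 to GRIK3 ran from 0.362 in M6-3 to 7.03 in D1-4. The sum of the pore-forming GRIK1, GRIK2 and GRIK3 was 8.44 ± 2.15 times that of GRIK4 and GRIK5. From D1 to M6, GRIK3 held 23.2% ± 9.56, 27.4% ± 8.20, 28.4% ± 12.1 and 33.7% ± 13.9, and GRIK2 37.6% ± 11.4, 38.5% ± 7.20, 33.8% ± 11.9 and 31.4% ± 10.9. The stage means of GRIK2 differed by less than the SD within any stage. Those of GRIK3 differed by more than its SD at D1 and at M2, and by less than its SD at M4 and at M6.

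The summed kainate FPKM was 52.1 ± 7.23 at D1, with a highest library of 57.9, and 83.1 ± 25.2 at M2, with a lowest library of 63.9, so the sums of these stages did not overlap, as was so for 3.82% of single genes and for 0 of the 8 members. It was 65.2 ± 14.3 at M4 and 64.7 ± 8.18 at M6, where both ranges overlapped that of D1. The sum was formed after the values of its genes could be seen and was not tested. The AMPA sum of the 3 members was 2.12 ± 1.21 times the kainate sum over the 20 libraries, from 0.915 times in M6-3 to 5.57 times in M4-1. It was thus below the kainate sum in M6-3, and also in M2-3 at 0.990 times. This AMPA sum leaves out GRIA3, which had 89.8 FPKM in M6-3.

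The question put to the stages was whether any subunit differed among the 4 stages. In limma fits on log2(FPKM + 0.1), 0 of the 8 members were called in any comparison. A call needs a Benjamini-Hochberg adjusted p below 0.05 together with a log2 difference of 1 or more in size. In M2 vs. D1, 0% of all genes tested were called. The corresponding share was 0.0537% for M4 vs. D1, 0.00596% for M6 vs. D1, and 0% for M4 vs. M2, M6 vs. M2 and M6 vs. M4. Against the mean of the later stages, D1 differed in 0.0596% of all genes. The F test over the 4 stages passed an adjusted p of 0.05 in 0.00596% of all genes and in 0 members, with the lowest adjusted p, 0.514, for GRIK3. Few genes of any kind passed these tests, so a count of 0 does not set the members apart from the rest.

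At an unadjusted p under 0.05, GRIK3 was the only member to pass in M2 vs. D1, where 15.6% of all genes did. The same held for M6 vs. D1 (7.41% of all genes) and for the later stages vs. D1 (11.7%), and these comparisons share the D1 libraries. In M4 vs. D1, M4 vs. M2, M6 vs. M2 and M6 vs. M4 none of the 8 members passed, where 8.71%, 8.68%, 6.14% and 6.87% of all genes did.

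GRIK3 encodes the kainate subunit with the lowest sensitivity to glutamate. Its levels at D1 were 12.6, 15.6, 11.5, 4.55 and 14.4 FPKM, and at M2 30.3, 19.3, 30.2, 11.9 and 21.0 FPKM. At M4 they were 7.73, 14.6, 22.4, 29.3 and 17.7 FPKM, and at M6 22.0, 19.9, 27.6, 9.20 and 26.6 FPKM. In each later stage except M4 4 of 5 libraries were above every D1 library, and at M4 3 were. The log2 fold change against D1 was 0.97 (SE 0.39) for M2, 0.62 (SE 0.39) for M4 and 0.86 (SE 0.39) for M6, with adjusted p of 0.246, 0.692 and 0.638 in that order. For the later stages together it was 0.82 (SE 0.32), with an adjusted p of 0.323.

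The D1 library with least GRIK3 was the striatal D1-4, and the lowest later libraries were M4-1, M6-4 and M2-4. Of these, M6-4 had a striatal marker sum of only 6.42 FPKM. The mature oligodendrocyte sums of D1-4, M4-1, M6-4 and M2-4 were 259, 122, 181 and 597 FPKM. M4-2, with a sum of 245 FPKM, had 14.6 FPKM of GRIK3. Without D1-4 the difference of the later stages from D1 was 0.51 (adjusted p = 0.612). Without all 5 libraries over the limits for markers of other regions it was 0.72 (adjusted p = 0.265). With the mapping rate that the study lists for each library as a covariate, the M2 vs. D1 difference was 0.28 (adjusted p = 0.925), and the part of mapping rate or tissue composition in the difference was not tested.

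The differences of the other kainate subunits from D1 were smaller in the fit of all 20 libraries, although without the 5 libraries GRIK2 had 0.93 in M2 vs. D1 beside 0.87 for GRIK3. GRIK2, which forms many of the kainate receptors of the brain, had 20.1 ± 8.05, 32.5 ± 13.4, 22.8 ± 12.5 and 20.8 ± 8.98 FPKM (n = 5 each) from D1 to M6. Its M2 vs. D1 difference was 0.70 (SE 0.37) on the log2 scale, with an adjusted p of 0.360, and its M6 vs. M2 difference was -0.67 (SE 0.37), with an adjusted p of 0.747. GRIK1 had 13.6 ± 1.41 FPKM at D1 and 19.7 ± 7.68 at M2, where M2-1 with 33.2 FPKM stood apart from the other 4 libraries at 14.8 to 18.6 FPKM, and its log2 difference was 0.47 (SE 0.25), with an adjusted p of 0.363.

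GRIK4 was the most even member at M2, with 4.89 ± 0.439 FPKM, and had 3.60 ± 0.924 FPKM at D1. Its levels at M2 were 4.23, 5.21, 5.21, 5.15 and 4.64 FPKM and at D1 4.44, 3.62, 4.16, 2.05 and 3.71 FPKM, so that only M2-1 fell within the D1 range. The log2 difference was 0.47 (SE 0.27), with an adjusted p of 0.401. GRIK5 was at 3.08 ± 1.03, 3.43 ± 1.19, 2.66 ± 1.01 and 2.61 ± 1.36 FPKM in the 4 stages in order of age, and its differences from D1 ran from -0.33 to 0.14 on the log2 scale, each with an SE of 0.37.

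Among the AMPA subunits, GRIA1, whose receptors are recruited during synaptic potentiation, had 24.6 ± 8.04, 33.5 ± 10.8, 29.9 ± 7.58 and 27.9 ± 12.6 FPKM from D1 to M6. Its M2 vs. D1 difference was 0.45 (SE 0.30), with an adjusted p of 0.473. GRIA4, found in fast-closing receptors, had 25.1 ± 4.69, 30.9 ± 13.7, 29.8 ± 10.7 and 23.5 ± 8.05 FPKM, with a difference of 0.22 (SE 0.30) and an adjusted p of 0.761. The M2 vs. D1 difference of GRIA2 was -0.01 (SE 0.55), with an adjusted p of 0.997 and a 95% interval from -1.15 to 1.13 on the log2 scale. This interval holds the threshold of 1 in both directions, so a change of that size in GRIA2 is neither shown nor excluded by these libraries. In M2 vs. D1 a rise of that size is likewise not excluded for 4 other members. Their intervals were -0.17 to 1.07 (GRIA1), -0.07 to 1.47 (GRIK2), 0.17 to 1.78 (GRIK3) and -0.09 to 1.04 (GRIK4).

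**Figure D3:**
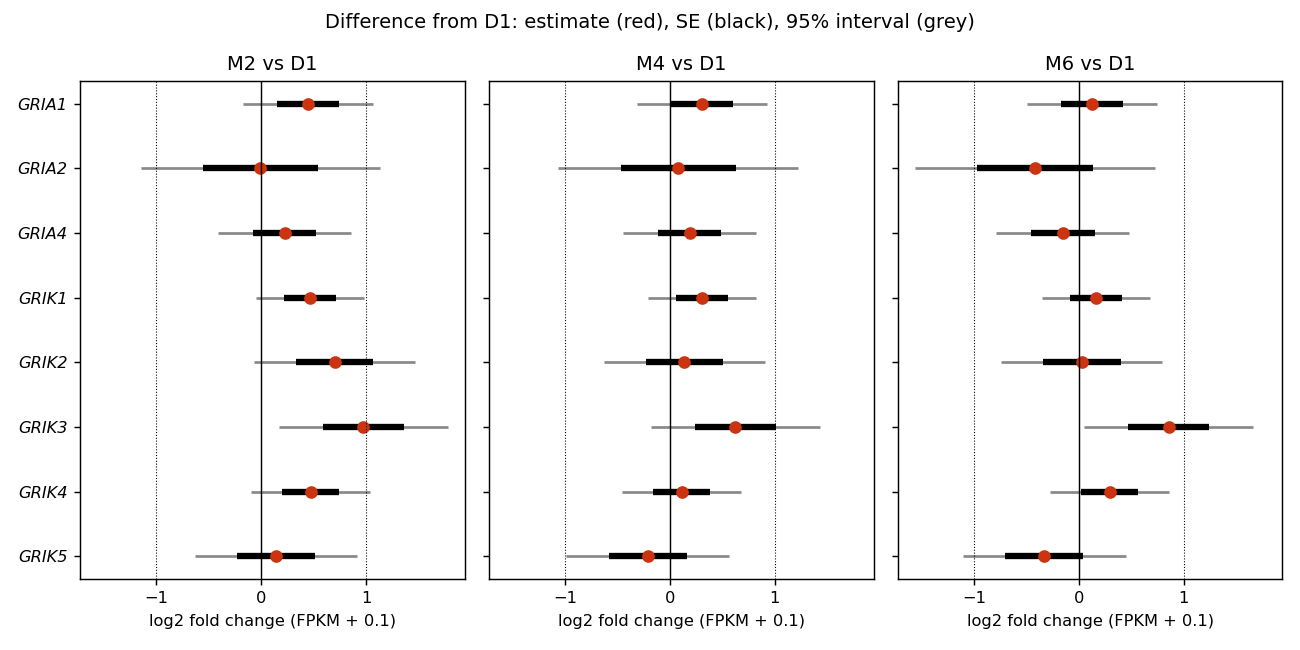
Log2 fold change of each subunit against D1 at M2, M4 and M6 (horizontal axis, on the FPKM + 0.1 scale), with the estimate in red, 1 SE as a thick black line and the 95% interval in grey, and dotted lines at the fold threshold of 1. The interval of GRIK3 excludes 0 at M2 and M6 before adjustment, that of GRIA2 is the widest, and 0 subunits pass after adjustment over all genes.

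In M2 vs. D1 7 of the 8 members were higher and 1 lower, beside 7509 and 9262 of all genes. The median log2 fold change of the members was 0.46, beside -0.07 over all genes. The median was 0.16 for M4 vs. D1 and 0.08 for M6 vs. D1, beside -0.07 and -0.05 over all genes, and these comparisons share the D1 libraries. Against M2, which they share in turn, the median was -0.25 for M4 (1 higher, 7 lower) and -0.35 for M6 (0 higher, 8 lower), beside -0.02 and 0.02 over all genes. For M6 vs. M4 it was -0.13 (2 higher, 6 lower) beside 0.04. Of all genes, 8099 were higher and 8672 lower in M4 vs. M2, and 8706 and 8065 in M6 vs. M2. In M6 vs. M4 these counts were 9043 and 7727. Several members were correlated over the libraries and M2-1 was the highest library for 6 of them, so their directions are not separate observations. No member had groups of 5 libraries that did not overlap in any pair of stages, where 3.82% of all genes had such groups in M2 vs. D1, 2.84% for M6 vs. D1 and 1.93% for M4 vs. D1. For M4 vs. M2, M6 vs. M4 and M6 vs. M2 that share was 1.09%, 0.775% and 0.757%. Differences between stage means made up 28.8% of the variance of GRIK3 between libraries, 20.2% of GRIK2, 19.9% of GRIK4 and 19.3% of GRIK1. The share was 13.0% for GRIA1, 10.7% for GRIK5, 9.89% for GRIA4 and 4.85% for GRIA2, beside a median of 18.2% over all genes. These shares were not corrected for the number of stages, so they exceed 0 even without a stage difference.

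Most of the spread therefore lay between goats of the same age, and 2 libraries held most of the extremes. M2-1 had the highest level of 6 of the 8 members, namely GRIA1 (50.0 FPKM), GRIA4 (53.8), GRIK1 (33.2), GRIK2 (52.6), GRIK3 (30.3) and GRIK5 (4.78). Its neuronal markers were low all the same, with SNAP25 at 68.1 FPKM beside a median of 428, SYT1 at 27.1 beside 132 and STMN2 at 57.1 beside 228, and the sum of the 6 neuronal markers was 163 FPKM. M6-3 had the lowest level of 5 members, GRIA1 (15.1 FPKM), GRIA2 (22.8), GRIA4 (12.4), GRIK2 (9.98) and GRIK5 (1.12), and the lowest neuronal sum of all, 67.4 FPKM. The same library had the most GRIA3 of all, at 89.8 FPKM, and 27.6 FPKM of GRIK3. The neuronal sum of the other 18 libraries was between 429 and 2573 FPKM, and the part of RNA quality or neuronal content in these 2 libraries was not tested.

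**Figure D4:**
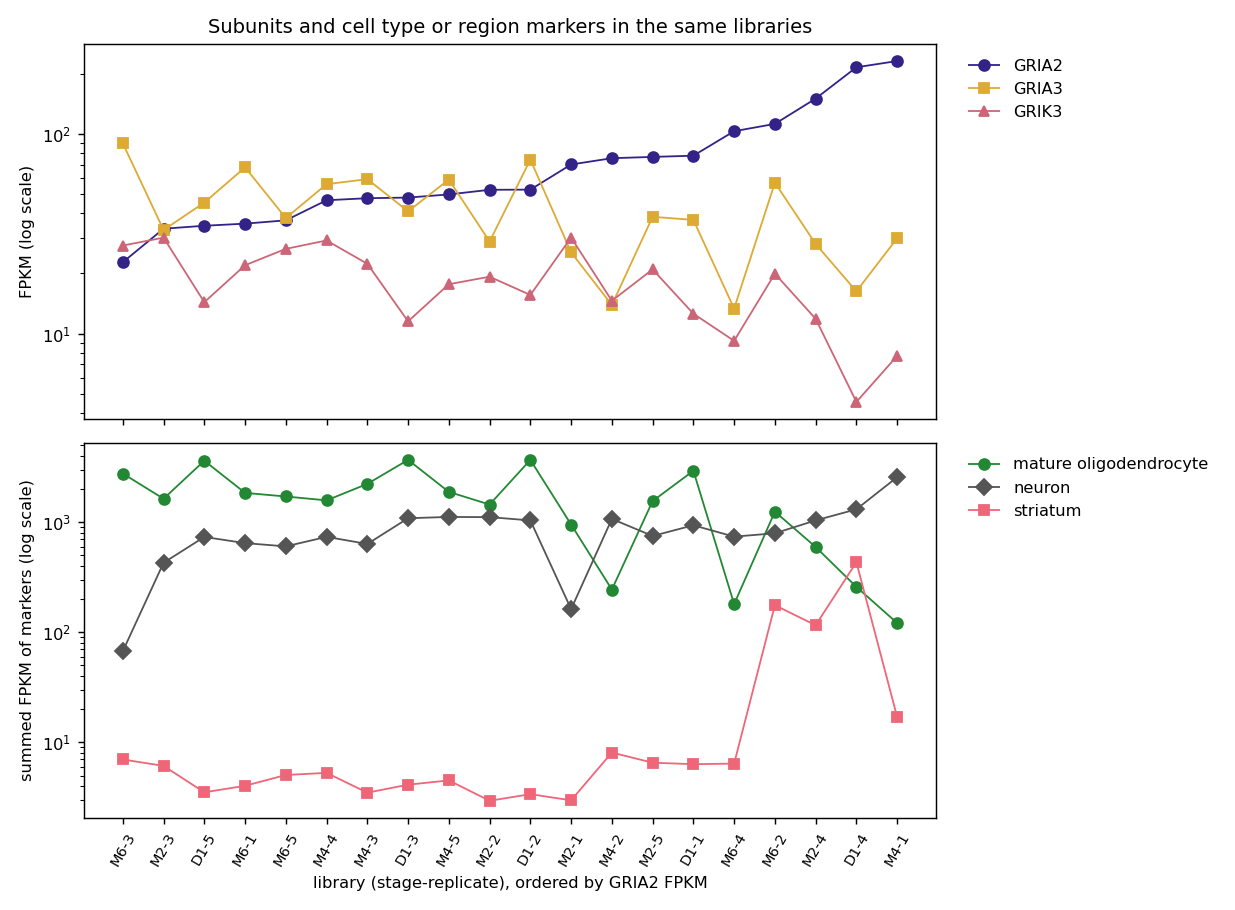
FPKM of GRIA2, GRIA3 and GRIK3 (upper panel) and summed FPKM of marker genes for mature oligodendrocytes, neurons and striatum (lower panel), both on log axes, in the 20 libraries ordered by GRIA2. The 4 libraries at the right have the most GRIA2, the highest striatal sums and, except M6-2, low oligodendrocyte sums. The striatal sum of M4-1 is 17.0 FPKM, with ADORA2A at 0.0521 FPKM. GRIK3 is at its lowest in D1-4.

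Over the 20 libraries several pairs of members moved together. Pearson's r of log2(FPKM + 0.1) was 0.81 for GRIA1 with GRIK2 (Spearman's rho 0.81, r = 0.71 without the 2 farthest libraries), 0.78 for GRIA4 with GRIK2 (0.76 and 0.63) and 0.77 for GRIA4 with GRIA1 or GRIK1. It was 0.76 for GRIK1 with GRIA1 but 0.60 (rho 0.52) for GRIK1 with GRIK2, and GRIK5 had 0.71 with GRIA1 and 0.68 with GRIK2. GRIK3 moved against GRIA2, with r = -0.75 (rho -0.65) and -0.53 without the 2 farthest libraries. In the 15 libraries under the limits for markers of other regions r was -0.51. GRIA3 likewise ran against GRIA2 (r = -0.59, rho -0.56) and with GRIK3 (r = 0.53, rho 0.39). Against GRIA1, GRIA4, GRIK1, GRIK2 and GRIK5 the r of GRIA3 was between -0.70 and -0.45. All of these points share the same 20 libraries, with their depth and tissue composition, so the coefficients are descriptions without a test.

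The genes most like each member in their levels over the 20 libraries were taken from the 13667 genes with a mean of at least 1 FPKM. GRIA2 was most like HPCAL4, a neuronal calcium sensor (r = 0.96), and RRAGD, a small GTPase of the amino acid sensing pathway (r = 0.96). UNC79, a component of the sodium leak channel complex, was among the 2 most like GRIA1 (r = 0.86), GRIA4 (r = 0.90) and GRIK2 (r = 0.89). The others were SFMBT2 for GRIA1 (r = 0.86), NEGR1, a neuronal adhesion protein, for GRIA4 (r = 0.88) and RALYL, an RNA-binding protein, for GRIK2 (r = 0.92). GRIK1 was most like KIAA0753 and LRRTM4, both with r = 0.86. GRIK3 was most like ARHGAP23 (r = 0.93) and CERCAM (r = 0.92), GRIK4 like SREBF2 (r = 0.84) and NDST1 (r = 0.81), and GRIK5 like ARHGEF17 (r = 0.92) and NUP93 (r = 0.89).

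Beyond the members, 71 genes of the receptors' wider pathway were examined by role, and all 71 were tested. In limma, 0 of them were called in any comparison. At an unadjusted p under 0.05, 6 passed as higher and 0 as lower at M2 than at D1, where 6.25% of all genes passed as higher and 9.35% as lower, and the median over the 71 was -0.10 beside -0.07 over all genes. At M6 against D1, 1 passed as higher (3.33% of all genes) and 2 as lower (4.08%), with a median of -0.36 beside -0.05.

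The auxiliary subunits of AMPA receptors, 14 genes, slow or speed the closing of the channel and bring it to the synapse. SHISA9 was the most abundant at 20.7 ± 17.8 FPKM (n = 20), from 5.13 FPKM in D1-5 to 80.7 FPKM in M4-2. CACNG2, known as stargazin, followed at 8.87 ± 7.67 FPKM and was highest in M2-1 at 32.2 FPKM, the library that was also highest in 6 members. Its M2 vs. D1 difference was 1.64 (SE 0.47) on the log2 scale, with an adjusted p of 0.153. In that comparison 3 of the 14 passed an unadjusted p under 0.05 as higher and 0 as lower, beside 6.25% and 9.35% of all genes. The kainate auxiliary genes NETO2 and NETO1 had 19.4 ± 13.0 and 7.41 ± 7.75 FPKM, and both were highest in the striatal D1-4, at 59.0 and 31.2 FPKM.

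GRID1, a delta subunit of the glutamate receptor superfamily, had 6.21 ± 1.45 FPKM, with values from 3.57 to 9.42 FPKM, and differed by 0.15 (SE 0.24) in M2 vs. D1, with an adjusted p of 0.796. GRIA3 differed by -0.33 (SE 0.47) in M2 vs. D1, with an adjusted p of 0.768.

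The scaffold and trafficking list held 17 genes, led by NSF, an ATPase that binds GRIA2 and keeps it at the membrane, at 116 ± 56.5 FPKM, and KLHL24, a partner of kainate receptors, at 71.1 ± 15.7 FPKM. NSF was lowest in M6-3 at 19.6 FPKM and highest in D1-4 at 239 FPKM. In the endoplasmic reticulum list of 7 genes, OLFM3 had 34.4 ± 25.1 FPKM and FRRS1L, a factor of AMPA receptor assembly, 26.3 ± 19.4 FPKM, and both were highest in M4-1, at 120.3 and 88.5 FPKM. The M6 vs. D1 difference of OLFM3 was -1.49 (SE 0.52), with an adjusted p of 0.535. Among 11 genes of extracellular clustering, the postsynaptic adhesion genes LRRTM3 and LRRTM2 were the most abundant, at 29.2 ± 12.2 and 17.9 ± 8.16 FPKM.

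The 12 kinase and phosphatase genes were led by PRKACB, a catalytic subunit of protein kinase A, at 116 ± 43.7 FPKM, and PPP3CA, the catalytic subunit of calcineurin, at 85.8 ± 114 FPKM. PPP3CA had 493 FPKM in the striatal D1-4. Of the 3 RNA editing genes, ADAR had 11.2 ± 3.06 FPKM and ADARB2 3.24 ± 1.70 FPKM, and the M6 vs. D1 difference of ADARB2 was -1.53 (SE 0.54), with an adjusted p of 0.554. ADARB1, the enzyme that edits GRIA2 and named here after its values were seen, had 2.99 ± 1.74 FPKM, from 0.373 FPKM in M6-3 to 8.36 FPKM in M4-2. For glutamate release, the vesicular transporter SLC17A6 ran from 0.478 FPKM in M6-3 to 231 FPKM in M4-2. The vesicular transporter SLC17A7, typical of cortical neurons, was listed at 0 in M2-1 and had 68.0 FPKM in M4-1.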

How the data were processed

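The authors removed rRNA from total RNA, made strand-specific libraries, cleaned the reads with fastp and mapped them to ARS1.2 with HISAT2 2.0.5, and StringTie 1.3.3b gave transcripts and levels. The deposited values are FPKM per gene. Read counts are unknown, so no counting error is given. Groups follow the labels, which name no batch.

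Of 21071 genes, 16771 reached 0.1 FPKM in 5 or more libraries. They were fitted with limma 3.58.1 in R 4.3.3 on log2(FPKM + 0.1), which understates changes of low genes, with 4 stages, a variance trend, no block and Benjamini-Hochberg adjustment over all genes. Thresholds for a call were an adjusted p of 0.05 and a log2 difference of 1 in size. The method was first tested on simulated data. In M2 vs. D1 it called 23% of 200 genes shifted by a log2 of 1, 80% at a shift of 2 and 99% at 4. RefSeq symbols (ARS1.2) matched 20610 identifiers. Shares are of summed FPKM. Members and lists were chosen with earlier results of these data known. Named were all members, GRIA3, GRID1, pathway genes called in any comparison, the 2 most abundant per role and the 2 genes most like each member. Some genes of the lists are not reported here. Other named genes were picked after their values were seen. Python 3.11.15 was used with pandas 2.3.3, numpy 2.4.6, scipy 1.17.1 and matplotlib 3.10.9.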

Additional observations from a re-analysis of the deposited data

Results flagged for a closer look

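In 32 groups of 5 libraries (8 members at 4 stages), the gap of the highest or lowest library to its neighbour exceeded Dixon's critical value of 0.71 of the range in 3, and chance gives about 1 in 20 groups. GRIA2 had 216 FPKM in D1-4, beside 34.7 to 77.8 FPKM in the other 4 libraries of D1. GRIA2 had 232 FPKM in M4-1, beside 46.5 to 75.5 FPKM in the rest of M4. GRIK1 had 33.2 FPKM in M2-1, beside 14.8 to 18.6 FPKM in the rest of M2. D1-4 had the highest striatal marker sum, M4-1 the highest cortical and neuronal marker sums and the lowest mature oligodendrocyte sum, and M2-1 the highest level of 6 members. The part of tissue composition in these values was not tested.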

How the results depend on the processing

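The 12 other settings tried were a pseudocount of 1, 2 other filters on low values, quantile normalization, median-ratio scaling, variances with no trend, library quality weights, the replicate block, the mapping rate in the fit, both of the latter, fits of the libraries compared and the adjusted p alone. Under all of them, without each library in turn, and without the 5 libraries over the limits for markers of other brain regions, 0 members were called in every comparison. With library quality weights, 1 pathway gene was called in M2 vs. D1, the scaffold DLG2 (1.07, adjusted p = 0.0166), and 1 in M6 vs. D1, ADARB2 (-1.93, adjusted p = 0.0466), among 148 and 95 genes in all. Without weights their adjusted p was 0.149 and 0.554. GRIA2 changed direction with the setting. In M2 vs. D1 its log2 fold change was 0.37 with quantile normalization, 0.059 with median-ratio scaling, 0.39 with weights, 0.82 with the mapping rate, 0.75 with the mapping rate and replicate block and 0.12 without the 5 libraries. Without single libraries it ran from -0.30 to 0.41 in M2 vs. D1 and from -0.36 to 0.30 in the later stages vs. D1, the highest without D1-4. For the later stages vs. D1 it was 0.15 with quantile normalization, 0.088 with weights, 0.54 with the mapping rate and 0.49 with the mapping rate and replicate block. GRIK5 in M2 vs. D1 was -0.030 with weights and between -0.00652 (without D1-5) and 0.34 without single libraries. GRIA4 ran from -0.00256 (without M2-1) to 0.39 in M2 vs. D1 and from -0.011 (without D1-5) to 0.16 in the later stages vs. D1. The causes were not tested. GRIK3 was higher in M2 than in D1 under all of these, by 0.061 to 1.18, with adjusted p from 0.115 to 0.993, and the lowest value came from the mapping rate with the replicate block. The median over all genes in M2 vs. D1 was 0.044 with the mapping rate.

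The replicate block left GRIK3 at 0.97 in M2 vs. D1 (adjusted p = 0.263) and changed no call of a member or pathway gene. The numbers gave no sign of pairing the libraries. Of 30 same-numbered pairs 7 had a correlation of deviations over 0.1 (median -0.011), beside 37 of 120 differently numbered pairs (median 0.0044). Only 3 of 20 libraries correlated best with their own number.

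With GRIA3 in the AMPA sum, the share of GRIA2 was 42.9% at D1 and 34.4% at M6, that of GRIA1 14.3% at D1 and 16.7% at M6, and that of GRIA4 14.1% at M6. The other 103 alternative values of the shares, and the 160 without single libraries, moved by less than 1 SD.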
